A study of Mus musculus with 7 samples.

Results

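Induced hepatic stem cells (iHepSCs) at a late passage were compared with the same kind of cells at an early passage, by subtracting the array labelled passage 3 (P3) from the array labelled passage 20 (P20). These are 2 of the 7 arrays of the series, and all 18193 genes with an annotated probe set were compared. The iHepSCs are C57BL/6J mouse embryonic fibroblasts (MEF) that were infected with lentivirus carrying Oct4 (Pou5f1) and Hnf4a, grown in HEP medium with HGF, EGF, nicotinamide and dexamethasone, picked as colonies and expanded as clones on collagen. Both passages share the strain, the 2 factors, the medium and the dish coating. The study took the clone iHepSC-C3 forward for detailed work, while the labels and the array methods do not say which clone was hybridised. The arrays say nothing of how other clones behave. The other 5 arrays are 4 of MEF, never reprogrammed and grown in serum medium without these additions, and 1 of primary hepatocytes (pHep) isolated from 6-week-old C57BL/6J mice. For pHep the labels name culture in HEP medium, whereas the study's methods describe a short incubation in Williams' medium E before RNA was taken. Each passage was measured on 1 array, which the labels number as replicates 1 and 2 of 1 cell type. The comparison therefore has no test and no p-value, and "higher" and "lower" below describe these 2 arrays. The differences between MEF replicates 2, 3 and 4 serve as the noise of the method. MEF replicate 1 was left out of that reference because its whole profile stood apart from the other 3, with Pearson correlations to them of 0.960 to 0.961 over all probe sets where they reached 0.997 among themselves. MEF replicates are not said to be separate cultures, so that this noise may be technical.

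Hepatic stem cells, or hepatoblasts, are the dividing progenitors of the fetal liver, which form both hepatocytes and the cholangiocytes that line the bile ducts. They carry liver transcription factors such as Hnf4a, Foxa2 and Gata6, secrete albumin and alpha-fetoprotein, and combine keratins 8 and 18 of hepatocytes with keratin 19 of ducts. Serial passage selects for cells that keep dividing, and cultured cells can over time slow their cycle, lose markers or adapt to the conditions on the dish. What the arrays can show is how much RNA of each gene was present relative to all other RNA on that array. In bulk RNA, fewer cells of a kind and less RNA per cell cannot be told apart.

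The 2 passages were close to each other. At a threshold of 2-fold, 39 genes (0.214%) were higher and 59 genes (0.324%) were lower at P20, together 98 of 18193 genes (0.539%). Between pairs of MEF replicates 2 to 4, 2, 10 and 11 genes (0.0110%, 0.0550% and 0.0605%) were 2-fold apart. At 1.5-fold, 200 genes (1.10%) were higher and 333 (1.83%) lower, together 533 (2.93%), against 159 to 170 genes (0.874% to 0.934%) in the MEF pairs. The typical gene differed about as much between passages as between MEF replicates. The median size of the log2 difference was 0.12 between passages and 0.10 to 0.11 in the MEF pairs. The distributions parted in their tails, with 99% of genes within a log2 difference of 0.86 between passages and within 0.57 to 0.58 in the MEF pairs. This excess lay in genes with a mean iHepSC level of 6 or more. At a level of 6 to 9 the 99% bounds were 0.99 between passages and 0.57 to 0.59 in the MEF pairs. Among genes with a mean iHepSC level of 9 or more, the 99% bounds were 0.81 and 0.46 to 0.50, whereas under a level of 6 they were 0.59 and 0.60 to 0.62. Across all 45101 probe sets the Pearson correlation between P3 and P20 was 0.996, given as a description beside 0.997 in each MEF pair. Of the 98 genes, 97 differed by more than their own range over MEF replicates 2 to 4. The exception was Spink1, a trypsin inhibitor, whose MEF values spanned 1.25. As so few genes were 2-fold apart in the MEF pairs, the count of 97 follows largely from the 2-fold threshold. It is no separate support for single genes, and it was 65 with the range taken over all 4 MEF arrays.

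**Figure D1:**
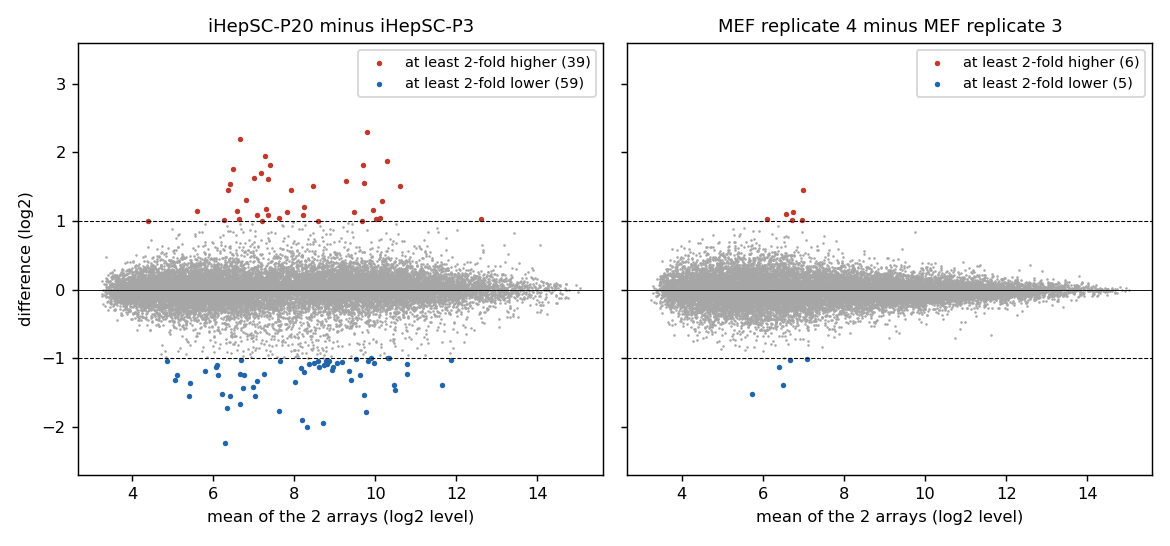
Log2 difference (vertical axis) against the mean log2 level of the 2 arrays compared (horizontal axis) for 18193 genes, with iHepSC-P20 minus iHepSC-P3 on the left and MEF replicate 4 minus MEF replicate 3 on the right. Dashed lines mark 2-fold, which 39 genes (red) and 59 genes (blue) pass on the left against 6 and 5 on the right, and on the left these genes reach far into the high levels.

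The 15 genes with the largest increments at P20 were of mixed function. Tff3, the trefoil peptide of mucus-secreting epithelia, had a log2 level of 8.64 at P3 and 10.94 at P20. It was at 6.43 to 7.28 on MEF replicates 2 to 4 and at 9.56 on the pHep array, so that P20 lay above all of them. With a log2 difference of 2.30, or 4.92-fold, it was the largest increment of all genes. Lrrn1, a leucine-rich repeat membrane protein, went from 5.57 to 7.77, but its other probe sets differed by 0.31 and -0.06, so that the increment rests on 1 of 3 probe sets. Fam107a, an actin-associated protein, was higher on all of its 3 probe sets, by 1.87, 1.79 and 1.28, and reached 11.22 against 8.87 in pHep. The water channel Aqp1, which the cholangiocyte list holds, went from 8.79 to 10.61 (3.53-fold). MEF replicates 2 to 4 were at 9.05 to 9.23 and pHep at 5.10. Of the 16 measured cholangiocyte markers 1, Aqp1, was 2-fold higher (0.214% of all genes). The list median was -0.13, with 4 above 0 and 12 below. Single enzymes of lipid and drug metabolism were higher, but not their families. Of 28 cytochrome P450 genes 2 were 2-fold higher (0.214% of all genes) and none 2-fold lower (0.324% of all genes). Their median was -0.035, with 17 below 0. It was -0.061 over the 13 members with a level of at least 6 on an iHepSC array. The other P450 genes were too low for a decrement to be seen. Of 31 phase II conjugation genes 1 was 2-fold higher (0.214% of all genes), with a median of 0.039. Hpgd, which inactivates prostaglandins, went from 8.93 to 10.49, and by 0.54 on its weaker probe set. Cyp4b1, a cytochrome P450 enzyme, went from 6.34 to 8.03. Gsta3, a glutathione transferase, went from 9.51 to 10.80, with a difference of 1.37 on its other probe set. Cyp1a1, the aryl hydrocarbon-inducible P450, went from 7.25 to 8.39.

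Further genes among the 15 largest increments were those of Sftpd, a lectin of the lung surface (9.84 to 11.36), the metal importer Slc39a8 (7.70 to 9.21, and 0.34 on a second probe set) and Stard8 (8.47 to 10.06). Resp18 and Ptprn2, proteins of secretory granules in endocrine cells, had differences of 1.95 and 1.61, but a second probe set of Ptprn2 read -0.23. Obp2a, a lipocalin, differed by 1.82 and Slc6a15, an amino acid carrier, by 1.55. Ppargc1a, the coactivator of mitochondrial and gluconeogenic genes, lies outside those 15 and was higher on each of 5 probe sets, by 1.24 to 1.58, from 5.65 to 7.10 on the one used. The 32 measured subunits of the respiratory chain lay between -0.15 and 0.13, with a median of 0.00. Il6ra, the interleukin 6 receptor, went from 7.68 to 8.77 on one probe set and differed by 0.35 on the other.

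The genes with the largest decrements were likewise of mixed function. Serpinb2, an inhibitor of plasminogen activators, went from 7.41 to 5.17, a log2 difference of -2.24, or 4.71-fold. MEF replicates 2 to 4 were at 10.22 to 10.56 and pHep at 4.08, so that P20 lay nearer to pHep. Krt79, a keratin, went from 9.69 to 7.74. Sprr1a, a precursor of the cornified envelope, went from 10.67 to 8.89. Krt14, the keratin of basal epithelial cells, went from 10.85 to 9.85, from 9.77 to 8.77 on a second probe set and by -0.15 on another at a level under 5. Of 14 measured keratins Krt14 was the one member past 2-fold, and the list median was -0.08, with Krt5 at -0.15, Krt15 at -0.01 and Krt17 at 0.07. Plod2, the lysyl hydroxylase of collagen, went from 10.48 to 8.95, and by -1.69 on its other probe set. Lox, which crosslinks collagen, went from 8.90 to 7.82. Igfbp3, which binds insulin-like growth factors, went from 9.93 to 8.75, with -0.94 on a second probe set.

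Il33, an alarmin cytokine, went from 11.15 to 9.76. Cxcl1, a neutrophil chemokine, went from 11.33 to 10.25 and was lower on its other probe sets by -1.27 and -0.80. Over the 41 measured chemokines and cytokines, 28 were below 0 and 12 above, but the median difference was -0.07, so that the decrement was that of a few members. Havcr2, an inhibitory receptor of immune cells, went from 7.20 to 5.48. Stmn2, a microtubule regulator known from neurons, went from 7.51 to 5.84 while MEF replicates 2 to 4 were at 11.37 to 11.52. The antibacterial lectin Reg3g (6.19 to 4.64), the peptide hormone precursor Nts (7.18 to 5.63), the small GTPase Arl14 (7.80 to 6.24), AF067061 (8.52 to 6.75), AA467197 (9.13 to 7.23) and Clca3a2 (7.45 to 6.02) completed the group. Btn1a1, a milk fat globule protein, went from 6.99 to 5.46, but its other probe sets, at levels under 4, differed by -0.13 and -0.02.

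**Figure D2:**
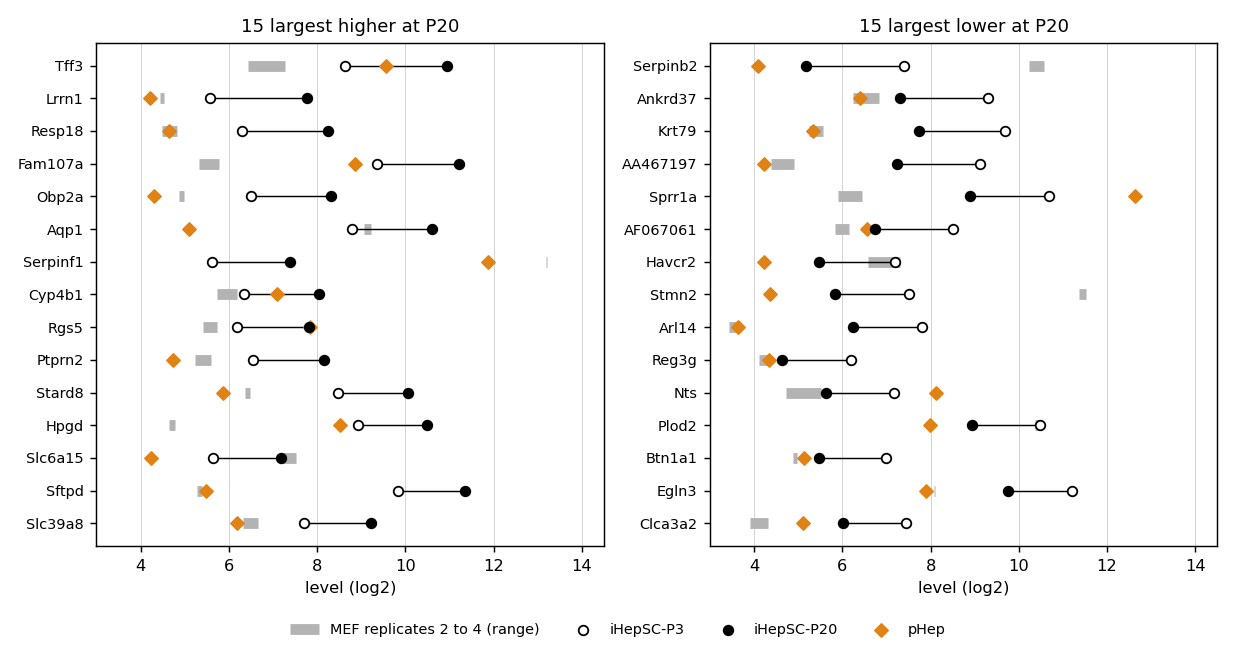
Log2 levels of the 15 genes with the largest positive (left) and the 15 with the largest negative (right) difference among genes with a level of at least 6 on either iHepSC array. Open circles are iHepSC-P3, filled circles iHepSC-P20, grey bars the range over MEF replicates 2 to 4 and orange diamonds pHep. Tff3 at P20 (10.94) lies above pHep and MEF, whereas Serpinb2 (5.17) and Stmn2 (5.84) at P20 lie farther from MEF than at P3.

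The genes were then grouped into 62 lists of pathways, complexes and cell types. Most lists stayed near 0. The medians of 56 lists lay between -0.14 and 0.14, near the span of -0.13 to 0.16 that the 62 lists had in the MEF pairs. In 39 lists no member was 2-fold apart. Since 0.539% of all genes were 2-fold apart, a short list would often hold none. The absence of such members in a list, here and below, therefore says little about that list. The median over all genes was 0.00. Lists farther below 0 were cell division (-0.88), interferon response (-0.45), DNA replication (-0.39), glycolysis (-0.35), immediate early (-0.25) and hypoxia targets (-0.24). Centring each array on its Gapdh control probe sets, which were themselves lower at P20 (13.97 at P3, 13.67 at P20), adds 0.30 to every gene. The medians then become -0.58, -0.147, -0.094, -0.048, 0.047 and 0.058 in the same order, so that the sign of the last pair flips, while the median of all genes becomes 0.30 and all 6 lists keep their distance below it. These 6 lists together hold 159 genes, of which 67 (42.1%) were at least 1.5-fold lower, against 1.83% of all genes. Conversely they make up 20.1% of the 333 genes that were 1.5-fold lower and 18.6% of the 59 that were 2-fold lower, so that most of the lower genes belong to none of them.

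**Figure D3:**
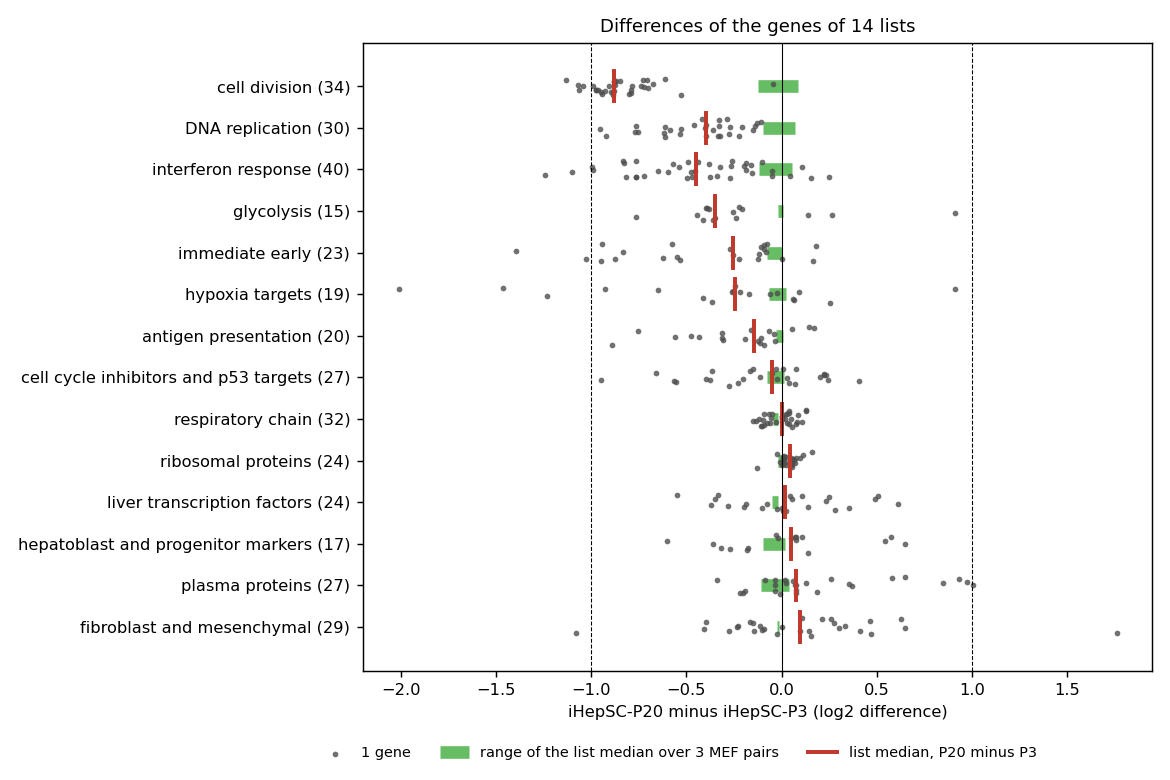
Log2 difference of iHepSC-P20 minus iHepSC-P3 for each gene (dots) of 14 lists, with the number of measured genes in brackets, the list median (red line) and the range of the list median over 3 MEF pairs (green bar). Dashed lines mark 2-fold. The cell division genes stand apart as a compact group around -0.88, and the respiratory chain and ribosomal proteins as compact groups around 0.

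The cell division list holds genes of the mitotic machinery, transcribed in the G2 and M phases of the cycle and silent in resting cells. All of its 34 measured genes were lower at P20, 4 of them by at least 2-fold (0.324% of all genes) and 32 by at least 1.5-fold (1.83% of all genes). The list median was -0.88, whereas it lay between -0.12 and 0.09 in the MEF pairs, and 70 of the 75 probe sets of these genes were below 0. The members past 2-fold were Bub1, a kinase of the spindle checkpoint (9.52 to 8.39), Ube2c, the ubiquitin enzyme of the anaphase complex (10.51 to 9.44), Prc1, which bundles the spindle midzone (9.71 to 8.64), and Anln, the cytokinesis scaffold, with a difference of -1.04. Mki67, the usual marker of dividing cells, went from 10.07 to 9.19, and Cdk1, the mitotic kinase, from 10.16 to 9.22. The genes were alike in size, since all but 2 lay between -1.13 and -0.61. The others were Cdc25c (-0.53) and Foxm1, a transcription factor of mitotic genes, at 7.65 and 7.60.

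Many mitotic genes carry in their promoters the cell cycle genes homology region (CHR, letters TTTGAA), often with a CCAAT box. In the 250 bases before the start site, on either strand, TTTGAA was found in 11 of 30 promoters of the cell division list (36.7%), in 16.0% of all promoters and in 11.9% of those of measured genes. CCAAT was found in 76.7% of the list and 33.8% of all promoters. The letters of the 2 motifs can share no more than 1 base. The promoters of the 3 lowest members with TTTGAA near the start site are shown to make that shared element visible. Each run is the 120 bases before the start site, 5′ to 3′ on the strand of the gene, from RefSeq on build GRCm38.p6, with TTTGAA or its reverse complement in capitals. They lie at chr2:164769809-164769928 (+ strand), chr7:80294356-80294475 (+ strand) and chr4:117178773-117178892 (- strand), and the genes differed by -1.07, -1.06 and -0.99.
Ube2c: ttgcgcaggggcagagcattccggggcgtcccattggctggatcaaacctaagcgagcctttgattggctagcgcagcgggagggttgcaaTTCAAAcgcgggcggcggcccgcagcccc
Prc1: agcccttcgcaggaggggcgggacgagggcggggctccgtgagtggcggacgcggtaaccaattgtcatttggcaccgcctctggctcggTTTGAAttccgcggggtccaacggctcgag
Kif2c: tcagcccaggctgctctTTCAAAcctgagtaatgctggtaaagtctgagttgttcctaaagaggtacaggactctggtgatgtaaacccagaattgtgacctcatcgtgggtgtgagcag
A match is a description of these letters and does not show that the site is used.

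On the scale of the whole series, the median level of the cell division list was 9.20 at P3 and 8.23 at P20. MEF replicates 2, 3 and 4 had medians of 10.85, 10.69 and 10.76, the pHep array 7.42 and MEF replicate 1 7.66. Both passages thus lay between MEF replicates 2 to 4 and the pHep array. P20 lay nearer than P3 to pHep, and also nearer to MEF replicate 1. The study reported similar doubling times for iHepSCs at P3 and P20, and a longer one for the parental fibroblasts. With MEF replicates 2 to 4 as the fibroblasts, the order of these RNA levels is not the order of the reported growth rates. MEF replicate 1 lay below both passages, and whether any of these MEF cultures was the one timed is not said. Between the passages, the list median differed while the reported doubling times were similar.

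**Figure D4:**
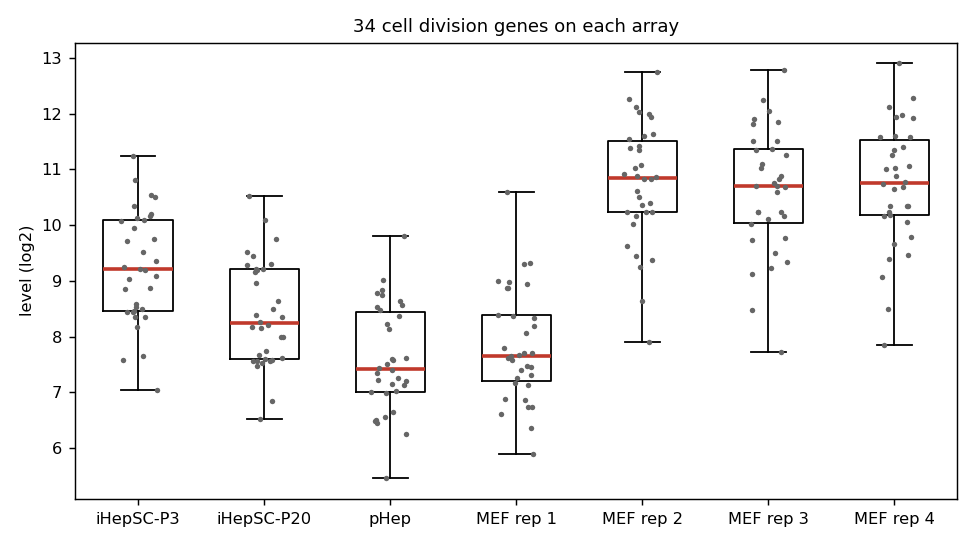
Log2 levels of the 34 cell division genes on each of the 7 arrays, with 1 dot per gene, boxes for the quartiles, whiskers to the lowest and highest gene and a red line at the median. The medians are 9.20 at P3 and 8.23 at P20, between those of MEF replicates 2 to 4 (10.69 to 10.85) and pHep (7.42).

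DNA replication genes, which peak earlier in the cycle, were lower with a smaller size. All 30 measured genes were below 0 with a median of -0.39, none reached 2-fold and 9 reached 1.5-fold (1.83% of all genes). In the MEF pairs the median lay between -0.10 and 0.07. Under Gapdh centring the list median is -0.094 and that of all genes 0.30, so that the list keeps its distance below all genes. The MEF pairs were not centred in that way. Members with the lowest values were the origin licensing factor Cdc6 (7.82 to 6.86), the repressor E2f8 (8.75 to 7.83), the helicase subunit Mcm5 (10.39 to 9.62) and Rrm2, a subunit of ribonucleotide reductase (12.03 to 11.27). Pcna, the sliding clamp, stayed at 13.02 and 12.91, and Mcm2 at 10.44 and 10.31. The median of 27 cell cycle inhibitors and p53 targets was -0.05, with 11 above 0 and 16 below. None passed 2-fold, and the 2 past 1.5-fold were lower, Btg2 (-0.95) and Gadd45g (-0.66). The senescence-associated inhibitors Cdkn2a (7.95 and 7.72) and Cdkn1a (12.84 and 12.68) were not higher at P20. MEF replicate 1, with a low level of the division list, had Cdkn2a at 12.93. Whether any of these genes had a part in the lower division genes was not tested. Of the 17 cyclins and Myc family genes none passed 2-fold, and the 2 past 1.5-fold were inhibitors of differentiation, Id3 (-0.78) and Id4 (-0.68).

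Among hypoxia targets, genes that the factors Hif1a and Epas1 switch on when oxygen is low, 3 of 19 were at least 2-fold lower (0.324% of all genes) and none 2-fold higher (0.214% of all genes). Ankrd37, an ankyrin repeat protein, went from 9.31 to 7.30, a log2 difference of -2.01, or 4.03-fold, and MEF replicates 2 to 4 were at 6.25 to 6.84. Egln3, the prolyl hydroxylase that marks the factors for degradation, went from 11.21 to 9.75, and by -1.21 on its other probe set. Adm, the vasodilator adrenomedullin, went from 7.87 to 6.64, and by -1.44 on the other. P4ha1, a collagen prolyl hydroxylase, differed by -0.93 and Bnip3, a mitophagy receptor, by -0.65. The list was not uniform. Vegfa, the vascular growth factor, stayed at 11.19 and 11.17, and Pfkfb3, which drives glycolytic flux, was higher, from 8.74 to 9.65. The RNA of the factors themselves differed by 0.09 (Hif1a) and 0.25 (Epas1).

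The core of the hypoxia response element, ACGTG, was found on either strand of the same 250-base windows in 12 of 21 promoters of these genes (57.1%) and in 16.6% of all promoters. The 3 lowest members with ACGTG in the last 120 bases are shown in the same way, with ACGTG or its reverse complement CACGT in capitals. They lie at chr8:45999851-45999970 (- strand), chr10:59323176-59323295 (+ strand) and chr7:138909507-138909626 (- strand). In the Bnip3 promoter both strands match at the palindrome CACGTG.
Ankrd37: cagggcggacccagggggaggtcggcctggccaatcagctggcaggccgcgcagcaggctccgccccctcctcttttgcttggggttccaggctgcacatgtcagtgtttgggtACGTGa
P4ha1: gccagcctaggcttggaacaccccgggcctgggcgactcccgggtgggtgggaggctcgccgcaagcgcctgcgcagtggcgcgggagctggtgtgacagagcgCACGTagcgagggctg
Bnip3: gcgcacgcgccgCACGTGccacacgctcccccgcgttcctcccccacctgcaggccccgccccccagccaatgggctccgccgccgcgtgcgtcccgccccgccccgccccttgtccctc
Of the 15 glycolysis genes, 12 were below 0 with a median of -0.35, against -0.02 to 0.01 in the MEF pairs, and none passed 2-fold. The lactate exporter Slc16a3 was the member past 1.5-fold (6.80 to 6.03), and the enzymes Ldha (13.60 and 13.21), Aldoa (13.57 and 13.23) and Hk2 (11.40 and 11.02) differed by less than that. Gapdh control probe sets differed by a like amount. When each array is centred on them, the glycolysis median is -0.048 and that of all genes 0.30.

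Interferon response genes, which cells switch on after sensing virus or interferon, were lower in 36 of 40 cases. The median was -0.45, against -0.12 to 0.05 in the MEF pairs, and 49 of 58 probe sets were below 0. Past 2-fold (0.324% of all genes) were Ifit2, an inhibitor of viral translation (6.74 to 5.50), and Usp18, the protease that removes Isg15 and damps the response (9.28 to 8.18). With these, 13 passed 1.5-fold (1.83% of all genes), among them the GTPases Iigp1 (8.84 to 7.85), Gbp2 (10.77 to 9.78) and Mx1 (8.56 to 7.73) and the RNA sensors Oas2 (9.21 to 8.37) and Oas1a (10.90 to 10.08). P3 lay above MEF replicates 2 to 4 for these except Ifit2: Mx1, for example, was at 4.28 to 4.36 there and at 4.08 in pHep. At P20 Mx1 was thus still far above the fibroblasts. Members above 0 were Mx2 (0.25), Stat2 (0.15), Dhx58 (0.11) and Ifitm3 (0.05), and the regulator Irf7 stayed at 7.61 and 7.51. Antigen presentation genes, partly induced by the same signals, had a median of -0.14 with 17 of 20 below 0. None passed 2-fold, and the immunoproteasome subunits Psmb9 (9.14 to 8.26) and Psmb8 (7.07 to 6.31) passed 1.5-fold.

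The interferon-stimulated response element was searched as GAAANNGAAA on both strands. It was found in 15 of 33 promoters of the interferon list (45.5%) and in 2.98% of all promoters. The promoters of Gbp2, Oas1a and Gbp3, the 3 lowest members with a match in the last 120 bases, are shown with the element or its reverse complement in capitals. Where 2 matches overlap, as in Oas1a and Gbp3, the whole stretch is in capitals. They lie at chr3:142620543-142620662 (+ strand), chr5:120907526-120907645 (- strand) and chr3:142559924-142560043 (+ strand), and the genes differed by -0.99, -0.82 and -0.76.
Gbp2: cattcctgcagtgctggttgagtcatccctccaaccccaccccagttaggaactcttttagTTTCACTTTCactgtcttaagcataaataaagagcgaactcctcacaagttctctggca
Oas1a: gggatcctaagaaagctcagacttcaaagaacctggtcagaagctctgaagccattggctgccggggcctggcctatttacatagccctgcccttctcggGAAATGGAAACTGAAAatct
Gbp3: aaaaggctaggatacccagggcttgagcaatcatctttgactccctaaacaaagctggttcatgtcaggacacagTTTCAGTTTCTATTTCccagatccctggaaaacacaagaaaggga

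Immediate early genes, which are switched on within minutes of a growth factor or stress signal without new protein, were below 0 in 20 of 23 cases. The median was -0.25, against -0.08 to 0.00 in the MEF pairs, and it is above 0 under Gapdh centring as given earlier. Fos, a subunit of the AP-1 factor, went from 12.35 to 10.96 and Ier2 from 12.39 to 11.36, the members past 2-fold. Other AP-1 subunits were lower by a smaller size, with Fosl1 at -0.95, Junb at -0.87 and Jun at -0.83. Egr1, the growth factor-responsive zinc finger protein, was at 12.48 and 11.93. Members such as Atf3 (-0.08), Nr4a1 (-0.12) and Fosb (0.00) were near 0, so that the list was mixed.

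**Figure D5:**
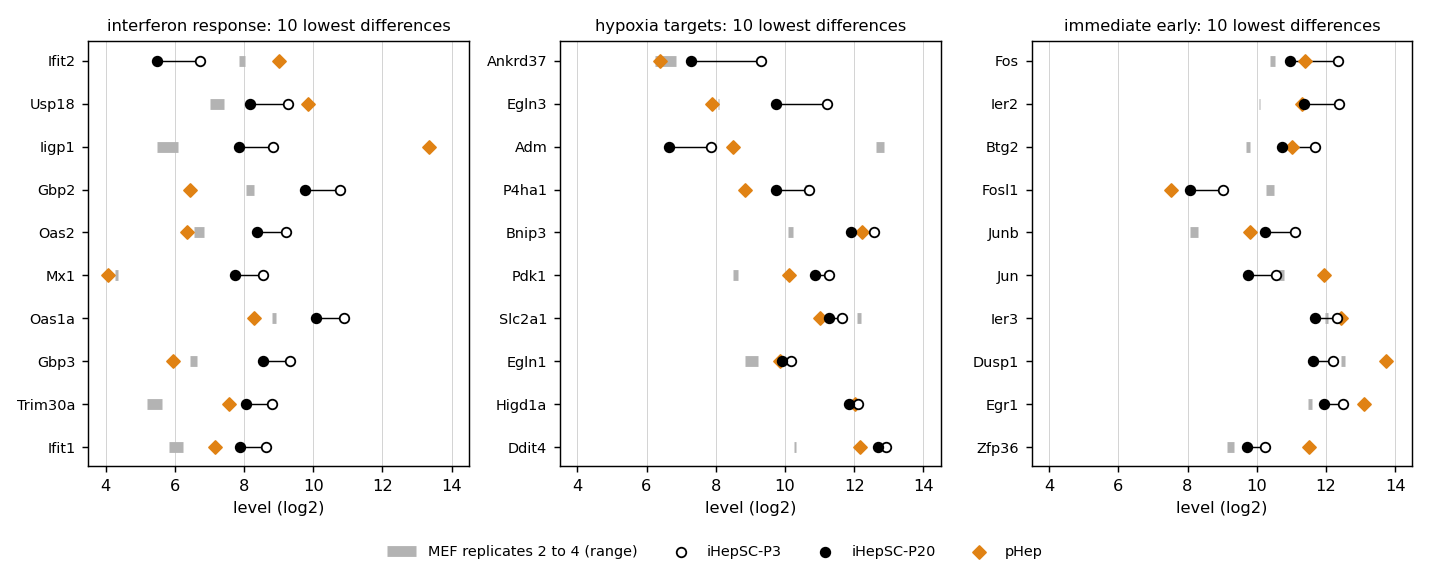
Log2 levels of the 10 genes with the lowest difference in the interferon response, hypoxia target and immediate early lists. Open circles are iHepSC-P3, filled circles iHepSC-P20, grey bars the range over MEF replicates 2 to 4 and orange diamonds pHep. For Ankrd37 (9.31 to 7.30) and Fos (12.35 to 10.96) P20 lies nearer to MEF than P3, while for Mx1 (8.56 to 7.73) both passages stay well above MEF.

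The genes that define the hepatic character differed little between the passages. Of 24 liver transcription factors none passed 2-fold (0.539% of all genes) and the median was 0.02. Hnf4a was at 12.07 and 11.88, Foxa2 at 12.21 and 12.22, Gata6 at 11.74 and 11.98 and Hhex at 9.33 and 8.98. Tef, a clock-controlled factor, was the member past 1.5-fold (10.70 to 11.32), and Onecut1 had the lowest difference (6.39 to 5.84). Pou5f1, the other reprogramming factor, was at 5.04 and 5.20, within its MEF range of 4.99 to 5.26. The 17 hepatoblast and progenitor markers had a median of 0.05 and none passed 2-fold (0.539% of all genes). Afp was at 10.45 and 10.52, Krt19 at 14.43 and 14.07, Krt18 at 14.22 and 13.93 and Cdh1 (E-cadherin) at 12.78 and 12.83. Sox9 was at 6.38 and 6.06 on the probe set used, below MEF replicates 2 to 4 (7.09 to 7.52) and pHep (10.90). Epcam was at 8.04 and 8.14 on the probe set used, which was as high in MEF (8.16 to 8.26), and at 9.90 and 10.01 on its other probe set. Vim, the mesenchymal filament, was at 14.20 and 13.97, and at 14.56 to 14.64 on MEF replicates 2 to 4.

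Of 27 plasma protein genes measured, 1 was 2-fold higher (Fetub), 5 were 1.5-fold higher (1.10% of all genes) and none was 1.5-fold lower. The median was 0.07, with 18 above 0 and 9 below, of which Hpx, the haem carrier, was lowest (-0.34). Alb, the albumin gene, went from 13.74 to 14.39 and pHep was at 15.13. Ambp, the precursor of bikunin and alpha-1-microglobulin, went from 8.83 to 9.81, the fetuin Ahsg from 8.17 to 9.10, Apoc3, an apolipoprotein of triglyceride-rich particles, from 8.88 to 9.73 and Fetub, the other fetuin, from 6.71 to 7.71. In pHep these genes were at 14.64, 14.18, 13.25 and 10.85, so that both passages lay far below the hepatocytes. Ttr, the transthyretin gene, was at 14.36 and 14.44, and Apoa1 and Apob differed by 0.02 and -0.03. The 26 genes that mark mature hepatocytes had a median difference of 0.00 and none passed 2-fold. Of these, 5 reached a level of 6 on an iHepSC array. The median level of the list was 5.18 at both passages. It was 5.07 to 5.17 on MEF replicates 2 to 4 and 8.14 in pHep. Most of these genes were thus too low at both passages for a decrement to be seen.

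The medium holds dexamethasone at both passages, and 19 genes known to respond to glucocorticoids were looked at after their values had been seen. They were split. Klf15, a metabolic regulator, went from 8.91 to 10.04. Tsc22d3, known as Gilz, went from 12.09 to 13.12 and differed by 0.95 on a second probe set, while 2 weaker probe sets read -0.14 and -0.36. Zbtb16 went from 9.01 to 9.84. Fkbp5, another common target, was at 13.25 and 13.46, and Angptl4 (10.86 to 10.08) and Dusp1 (12.21 to 11.63) were lower. With 12 of 19 above 0 the median was 0.21.

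Markers of other cell types did not mark off either passage. Of 17 macrophage markers, Laptm5 was 2-fold lower on 1 of its 5 probe sets (7.70 to 6.27), the others lying between -0.34 and 0.24. The defining markers Adgre1 (6.24 and 6.46), Ptprc (4.51 and 4.26) and C1qa (5.34 and 5.60) were near the low end of the array at both passages. No lymphocyte or blood marker of 17 and no endothelial marker of 16 passed 2-fold (0.539% of all genes). Of 13 stellate cell markers, Rgs5, a regulator of G-protein signalling, was higher (6.19 to 7.81) on the probe set used, while the others of its 4 read 0.69, 0.14 and -0.15. Fibroblast genes had a median of 0.10 over 29 members. Serpinf1, a secreted serpin at 13.18 to 13.21 in MEF replicates 2 to 4, went from 5.62 to 7.38 and by 0.68 on its other probe set, and Lox went the other way. The list was mixed in level, with 14 of the 29 members at 6 or more on an iHepSC array. Col1a1 (6.44 and 6.34), Pdgfrb (3.30 and 3.52) and Thy1 (4.84 and 5.10) were low at both passages. Sparc (13.52 and 13.49), S100a4 (12.47 and 12.07) and Dcn (9.74 and 9.33) were high at both. Fn1, the fibronectin gene, went from 12.31 to 12.96. Of 36 imprinted genes Peg3 was 2-fold higher (5.04 to 6.18), with its other 4 probe sets between 0.11 and 0.70, and stayed far below MEF (10.59 to 10.74).

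The other arrays give a scale for the direction of these differences. Of the 333 genes that were 1.5-fold lower at P20, P20 was nearer than P3 to the pHep level in 274 (82.3%), against 53.3% of all genes, and pHep was below P3 in 288 (86.5%, all genes 63.5%). The 200 genes that were 1.5-fold higher went the other way by distance, with P20 nearer to pHep in 82 (41%). By side they did not, since pHep was above P3 in 103 (51.5%, all genes 35.6%). MEF replicates 2 to 4 averaged below P3 in 154 of the 200 (77%, all genes 52.6%). At 2-fold, P20 was nearer to pHep in 45 of 59 lower genes (76.3%) and 15 of 39 higher genes (38.5%). P20 was also nearer than P3 to the mean of MEF replicates 2 to 4 in 35 of the 59 lower genes (59.3%, all genes 42.1%). That share was 41.7% of the 333 genes that were 1.5-fold lower, 15.4% of the 39 higher genes and 19.5% of the 200. P3 enters both the difference and the distance, so that these shares are a description. Correlations with the pHep array over all probe sets were 0.912 for P3 and 0.916 for P20, and those with MEF replicates 2 to 4 were 0.892 to 0.894 and 0.886 to 0.887.

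Both passages carried the same pattern of sex-linked RNA, which the fibroblast arrays did not. Eif2s3y, a gene of the Y chromosome, was at 4.23 at P3 and 4.12 at P20, against 9.99 to 10.10 on MEF replicates 2 to 4. Kdm5d was at 3.85 and 3.96 against 7.08 to 7.24, and Uty at 3.49 and 3.40 against 7.83 to 8.15. Xist, the RNA that silences an X chromosome, was at 7.07 and 6.98 against 9.77 to 10.14. MEF replicates 2 to 4 thus carried RNA of both Xist and the Y genes. On the pHep array, from male mice, Eif2s3y was at 10.37, Kdm5d at 9.46, Uty at 9.67 and Xist at 6.23. The iHepSC arrays were thus low in the Y genes, with Xist nearer to pHep than to MEF. The cause was not tested. No chromosome stood apart as a whole. Over 20 chromosomes, with 12612 genes at a level of at least 6, the median differences between passages lay between -0.02 and 0.05, against -0.04 to 0.00 in the MEF pairs.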

How the data were processed

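RNA of MEF (4 arrays), iHepSCs at P3 and P20 (1 array each) and pHep (1 array) was hybridised to Affymetrix Mouse 430 2.0 arrays. The authors processed the arrays by RMA (background correction, quantile normalization between arrays and a summary per probe set) and deposited log2 expression values of 45101 probe sets. Software versions for that step are not given in the sources used here. Quantile normalization makes array distributions nearly equal (medians 6.28 to 6.33), so that a change shared by most genes would not be seen, and arrays give no counts, so that their number limits the precision.

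Of the probe sets, 34945 carried 1 gene symbol in the platform annotation, 932 several and 9160 none, and 64 were controls. The 34945 gave 18193 genes, 9010 of them with more than 1 probe set, and of several probe sets the one with the largest average across the 7 arrays stood for the gene. The P3 value was subtracted from the P20 value without a statistical test. Calls were made at 2-fold and, as a second threshold, at 1.5-fold, and the same counts between MEF replicates 2, 3 and 4 gave the noise. The counting step was tested on simulated data with known shifts. Genes named are the 15 largest in each direction among genes with a level of at least 6 on an iHepSC array, up to 3 members past 2-fold in each direction per list, genes the study names for the arrays, sex-linked genes, and members of described lists as values. The 62 lists and this rule were chosen with earlier results of these data known, and the glucocorticoid list and the choice of single list members within 2-fold were made after values were seen. Levels are compared between arrays for 1 gene, not between genes. Alternatives were another choice or averaging of probe sets, level filters of 6 and 8, centring on the median or on Gapdh, a second quantile normalization and cyclic loess (limma 3.58.1 in R 4.3.3), and other sets of MEF arrays. RefSeq promoters (GRCm38.p6) were matched by Entrez gene ID and searched over 250 bases before the start site, with 28 of the 34 cell division genes, 16 of the 19 hypoxia targets and 28 of the 40 interferon genes found. Python 3.11.15, numpy 2.4.6, pandas 2.3.3 and matplotlib 3.10.9 were used.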

Additional observations from a re-analysis of the deposited data

Results flagged for a closer look

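The median log2 level of the cell division list on MEF replicate 1 was 7.66, while MEF replicates 2, 3 and 4 had 10.85, 10.69 and 10.76. Its gap to the nearest of the other arrays took up 95.1% of the range of the 4 MEF arrays, beyond the bound of Dixon's test at the 95% level, which chance alone passes in about 1 of 20 groups. This array is not part of the noise reference. It enters the choice of probe set, which averages all 7 arrays, the levels of single genes and lists given beside the passages, and the alternative with all 4 MEF arrays.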

How the results depend on the processing

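Of the alternatives, 2 changed the counts of genes 2-fold apart by over 1.5 times. With a level of at least 8 on an iHepSC array, 24 genes were higher and 37 lower, because fewer genes were compared (8551). Centring on the Gapdh controls gave 121 higher and 23 lower genes, so that 84.0% of the calls were higher against 39.8% as deposited, and the medians of the immediate early genes (0.047) and of the hypoxia targets (0.058) turned above 0. This centring shifts all genes by 0.30, and whether Gapdh RNA itself differed between the passages was not tested. All other settings gave 29 to 40 higher and 46 to 64 lower genes. The 55 named genes past 2-fold kept their direction under each setting in which they were measured, and 42 remained past 2-fold when the probe sets of a gene were averaged. The number of genes beyond their own MEF range (97) was 97 to 98 without one of MEF replicates 2 to 4, and 65 with all 4 MEF arrays. No paired analysis was possible because each passage has 1 array. With 1 array per passage, passage, culture, harvest and array cannot be told apart. The Actb control, read at the 3′ end minus the 5′ end as a sign of RNA quality, was 0.31 at P3 and 0.37 at P20, and its part in the differences was not tested.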

Other observations

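Signalling pathways held single members with larger differences inside lists that stayed near 0, and these members were chosen after their values were seen. Among 41 genes of FGF, EGF, HGF and PDGF signalling (median 0.11), the receptor Fgfr3 had a log2 difference of 0.96 and the ligand Fgf1 one of -0.79. Among 45 genes of the TGF-beta and BMP pathway (median 0.01), Ltbp1, which holds latent TGF-beta in the matrix, went from 7.28 to 6.05, the BMP-responsive Id3 from 11.69 to 10.91, and the coreceptor Tgfbr3 differed by 0.70. Shh, the hedgehog ligand, went from 6.16 to 7.46 and Porcn, which acylates Wnt ligands, from 9.60 to 10.65, while none of the 46 genes of the Wnt list was 2-fold apart. Of 19 NF-kB targets and regulators (median -0.13), Nfkbiz went from 11.44 to 10.59, Vcam1 from 12.22 to 11.46 and Tnfaip2 from 8.07 to 7.30, none of them past 2-fold.

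Of 24 integrins and laminins none was 2-fold apart, and the epithelial integrin subunits Itgb6 (-0.67) and Itga6 (-0.60) and the vitronectin receptor subunit Itgb3 (-0.65) were past 1.5-fold lower. The 24 ribosomal protein genes lay between -0.13 and 0.16. Of 18 circadian clock genes the nuclear receptor Rora had the largest difference (6.06 to 6.90) and no member was past 2-fold.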
